A study of Mus musculus with 12 samples.

Results

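Antimicrobial and acute-phase proteins were followed through the keratinocyte stages and the immune cells of mouse paw epidermis by 9 genes, S100a8, S100a9, Defb1, Defb6, Saa1, Saa3, Lcn2, Slpi and Wfdc17, found by their symbols among the 32285 genes listed in each library. All 9 were listed in each of the 12 libraries. Single cells were prepared from the hind paw epidermis of wild-type C57BL/6J mice, 1 library per mouse, with 3 male mice on a regular diet (RD), 3 male mice on a high-fat diet (HFD), 3 female RD mice and 3 female HFD mice. The RD held 11% fat and the HFD 42% fat (EnvigoTD88137). Mice were 6 to 8 weeks old when the diets began, ate them for 10 weeks and were 16 to 18 weeks old when cells were taken, and the HFD served as the study's model of painful diabetic neuropathy. The epidermis was freed with Dispase overnight and split into cells with TrypLE.

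The surface of the skin is defended by small secreted proteins. Beta-defensins (Defb1, Defb6) are cationic peptides that damage microbial membranes. S100a8 and S100a9 pair to form calprotectin, which withholds zinc and manganese from microbes and is abundant in neutrophils and in stressed keratinocytes, while lipocalin 2 (Lcn2) captures the siderophores with which bacteria collect iron. Slpi and Wfdc17 are proteins of the whey acidic protein family, whose best known member, Slpi, inhibits neutrophil elastase. Serum amyloid A proteins (Saa1, Saa3) are acute-phase apolipoproteins, made by the liver and locally by epithelia and macrophages.

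The promoters of 4 members are shown: Wfdc17, the member that passed a diet test, Defb6, the member bound most closely to 1 class, and the neighbours S100a8 and S100a9, which were found in the same cells. The sequences are the bases before the start site that lie outside annotated genes, on the gene's strand, from RefSeq on GRCm38.p6, for Defb6 chr8:19225228-19225477 (+), Wfdc17 chr11:83703806-83703990 (+), S100a8 chr3:90668821-90668977 (+) and S100a9 chr3:90695722-90695971 (-). Capitals mark the letters TTNNGNAA on either strand, a short form of the element bound by C/EBP factors.
Defb6: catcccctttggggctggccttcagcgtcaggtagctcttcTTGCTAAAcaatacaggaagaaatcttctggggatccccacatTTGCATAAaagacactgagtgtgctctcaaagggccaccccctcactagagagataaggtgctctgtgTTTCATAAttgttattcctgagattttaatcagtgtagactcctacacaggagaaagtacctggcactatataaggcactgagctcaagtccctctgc
Wfdc17: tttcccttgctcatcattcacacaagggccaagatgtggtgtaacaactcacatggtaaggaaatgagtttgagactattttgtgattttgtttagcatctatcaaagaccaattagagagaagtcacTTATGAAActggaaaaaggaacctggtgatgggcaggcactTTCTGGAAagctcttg
S100a8: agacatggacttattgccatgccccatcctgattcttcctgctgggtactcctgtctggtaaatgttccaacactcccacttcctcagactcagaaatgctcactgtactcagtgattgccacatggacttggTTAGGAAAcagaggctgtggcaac
S100a9: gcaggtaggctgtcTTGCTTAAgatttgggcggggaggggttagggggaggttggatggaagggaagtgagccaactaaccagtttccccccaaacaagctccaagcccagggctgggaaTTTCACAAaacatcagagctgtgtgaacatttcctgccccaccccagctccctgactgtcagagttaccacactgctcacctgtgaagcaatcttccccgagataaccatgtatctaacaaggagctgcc
In the 250 bases before the start site, TTNNGNAA was found in 8 of the 8 members with a promoter entry and in 36.8% of 32851 promoters. The letters TATAAA, on either strand, were found in 1 of the 8 (S100a8) and in 12.4% of all promoters. In S100a8 they lay at bases 221 to 226 of the 250, past the printed stretch, which is the first 157 bases. For Wfdc17 the first 185 of the 250 were printed. The letters TGANTCA (AP-1), TTCNNNGAA (STAT) and GGANNTTCC (NF-kB) were found in none of the 8, and in 6.75%, 7.02% and 3.59% of all promoters, on either strand. A match is a description of letters and not a bound site. On the same assembly S100a8 (chr3:90668978-90670035) and S100a9 (chr3:90692632-90695721) lay 22596 bases apart on opposite strands, Saa1 (chr7:46740497-46742980) lay 24796 bases from Saa3 (chr7:46711998-46715700), and Wfdc17 (chr11:83703991-83706268) lay 40671 bases from Wfdc21, a gene of the same family. Defb1 (chr8:21776599-21795185), Defb6 (chr8:19225478-19228209), Lcn2 (chr2:32384633-32388252) and Slpi (chr2:164354070-164389095) complete the set.

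Between 134449247 and 194673581 UMIs (counted transcripts) were found per mouse, and 6226 to 15193 cells per mouse passed the filters, 62147 in males and 64228 in females. Any 2 libraries shared 15 to 70 barcodes, at most 0.564% of the smaller. Males and females were clustered separately with the 9 members left out, so that no class was defined by them. Classes were named from markers, and "like" is understood for each: basal, proliferating, volar (Krt9), suprabasal or spinous, terminally differentiated, Krt79 cells (a keratin of the hair canal and gland ducts), Langerhans cells (LC-like) and T cells in both sexes. Males had in addition an upper suprabasal class and a Dynap+ basal class, and females a Wfdc21+ suprabasal class and a Sox5+ proliferating class. LC-like cells that also held keratinocyte transcripts were kept apart (275 male and 307 female cells). The LC-like class met 8 of its 8 markers and the Krt79 class 5 (males) or 6 (females) of 7. Male counts were made with another version of the counting software than female counts, so sex and software cannot be told apart, and levels were compared only within a sex. Levels are UMIs of a gene per 1000000 UMIs of the class (CPM) in each mouse.

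Defb6, a beta-defensin, was a transcript of the Krt79 cells in both sexes. Its level there was 1299 CPM ± 337 (SD, n = 6) in males and 1463 CPM ± 538 (SD, n = 6) in females. The class next in order reached 45.4 CPM in males (T cells, with 47 UMIs, all of them in 1 cell of 1 HFD mouse) and 37.0 CPM in females (LC-like cells with keratinocyte transcripts). The next keratinocyte class reached 14.3 CPM in males (Dynap+ basal) and 26.8 CPM in females (terminally differentiated). In males Krt79 cells were 4.53% of all cells and held 93.1% of all Defb6 UMIs, and in females they were 7.99% of cells and held 94.1% ± 2.90 (SD over 6 mice). Basal cells lay at 1.37 CPM in males and 1.04 CPM in females. Krt79 cells were above the next class in 6 of 6 mice of each sex, for which a two-sided exact sign-flip test over 6 mice gives p = 0.0313, the smallest it can give, and an adjusted p of 0.17 over the 180 pairs of neighbouring classes tested for the members. No pair of neighbours passed this test after adjustment, and the orders given here are described by how many of 6 mice showed them.

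Within the Krt79 class Defb6 was made by a minority of cells. Cells with at least 20 Defb6 UMIs numbered 336 of 2818 in males and 585 of 5134 in females, and they held 95.4% and 95.9% of the class's Defb6 UMIs. These were chosen by their Defb6 UMIs, and what led them is a description: Krt79 itself was at 11204 CPM in the male cells against 403 CPM in Krt79 cells without Defb6, Cst6, a cystatin of the cornified layer, led in both sexes, and Gata6, a transcription factor of the upper hair follicle and sebaceous duct, was at 94.3 CPM against 5.46 CPM in females. The proteases Klk6 and Klk7 and the keratin Krt77 were among the leading genes in both sexes as well. Another member, Defb1, was among the 10 leading genes in males, at 483 CPM against 34.4 CPM. With every cell thinned to 2000 UMIs, Defb1 was found in 38.4% of male Krt79 cells with Defb6 against 6.92% of those without, and in 21.2% against 4.47% in females. Across the 66 sums of class and mouse in each sex, the genes whose levels followed Defb6 most closely were Gata6 (mean Pearson r of the 2 sexes 0.867), Rnase12 (0.804) and Cidea (0.798), among 9624 genes. These sums share libraries and classes, and the r values are descriptions.

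In LC-like cells Defb6 reached 2.24% (males) and 1.75% (females) of its level over all cells, and Defb1 3.00% and 1.70%. The keratins Krt1, Krt5, Krt10 and Krt14, which Langerhans cells do not make, were found there at 2.17% to 2.55% in males and 1.13% to 1.90% in females. Both defensins in LC-like cells thus lay near the keratins, with male Defb1, from 7 UMIs, above their range, and the part of free RNA in these levels was not tested. At 2000 UMIs per cell, 0.116% of male and 0.304% of female LC-like cells held a Defb6 UMI (median depth 4505 and 6375 UMIs), against the shares of Krt79 cells given with the diet results below, at median depths of 7547 and 7655 UMIs.

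Defb1 was spread over more stages than Defb6 and was highest late in differentiation. In males terminally differentiated cells had 222 CPM ± 21.6 (SD, n = 6), Krt79 cells 119 CPM ± 39.9, upper suprabasal cells 61.3 CPM and basal cells 36.5 CPM, each step lower in 6 of 6 mice. In females the Wfdc21+ suprabasal cells had 266 CPM ± 50.7 (SD, n = 6), terminally differentiated cells 173 CPM ± 45.0, Krt79 cells 84.3 CPM ± 24.9, basal cells 58.0 CPM ± 9.90 and proliferating cells 30.2 CPM, again in this order in 6 of 6 mice. The means of suprabasal and volar cells were below those of basal cells, at 21.4 and 17.7 CPM in males and 27.0 (the larger suprabasal class) and 18.9 CPM in females. Terminally differentiated cells held 34.9% and upper suprabasal cells 24.4% of the male Defb1 UMIs. Thinned to 2000 UMIs, 36.0% ± 5.74 (SD, n = 6) of female Wfdc21+ cells had a Defb1 UMI, against 10.7% of basal cells and 0.0466% of LC-like cells. The genes most like Defb1 across classes were Fam89a (r = 0.870), Ppl, which encodes the cornified envelope protein periplakin (0.838), and Amotl2 (0.833).

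**Figure D1:**
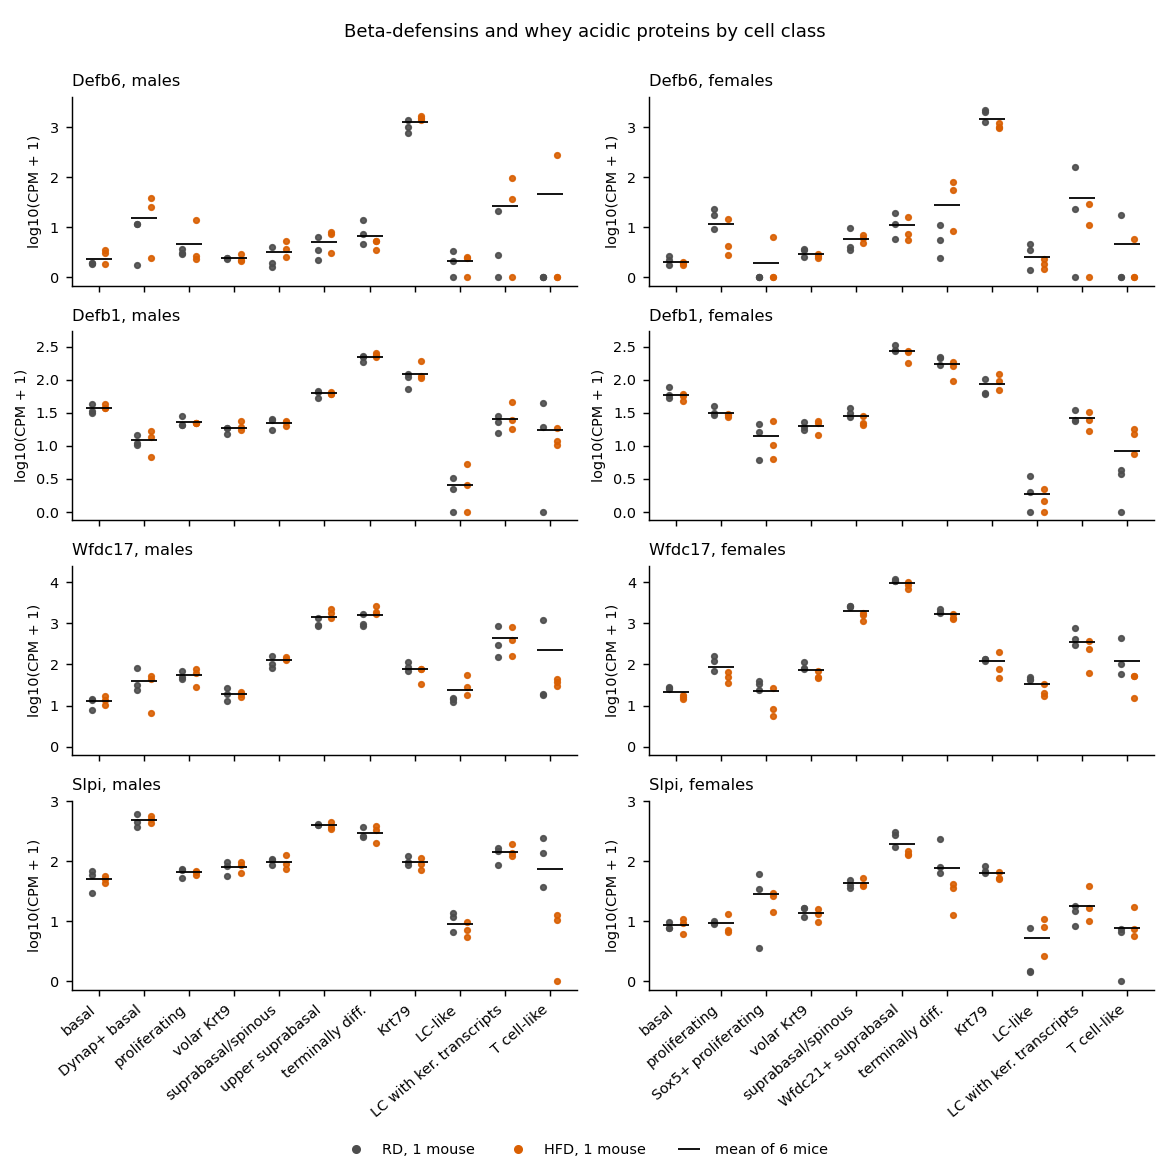
Levels of Defb6, Defb1, Wfdc17 and Slpi in each cell class, as log10 of CPM + 1, with 6 male mice and 6 female mice per class (grey RD, orange HFD) and a bar at the mean of the 6. Defb6 stands above all other classes in Krt79 cells, at 1299 CPM in males and 1463 CPM in females, and Wfdc17 is highest in the outer keratinocyte stages.

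Wfdc17 was found in the outer stages. Among keratinocyte classes of males it reached 1640 CPM ± 646 (SD, n = 6) in terminally differentiated cells and 1414 CPM ± 530 in upper suprabasal cells, then 126 CPM ± 29.1 in suprabasal cells and 11.9 CPM in basal cells. The first 2 of these were in this order in 5 of 6 mice. In females it was highest in the Wfdc21+ suprabasal class, at 9825 CPM ± 1824 (SD, n = 6), followed by 2026 CPM in the larger suprabasal class and 1709 CPM ± 355 in terminally differentiated cells, and the Wfdc21+ class was above the next in 6 of 6 mice. A Wfdc17 UMI was present in 94.7% ± 1.64 (SD, n = 6) of female Wfdc21+ cells thinned to 2000 UMIs, against 5.97% ± 2.27 of LC-like cells. The larger suprabasal class held 55.1% ± 4.04 and the Wfdc21+ class 34.5% ± 3.46 (SD over 6 mice) of the female Wfdc17 UMIs, with 17.1% and 2.03% of the cells. The genes most like Wfdc17 were Alox12b (r = 0.932), a lipoxygenase of the lipid barrier, Hal (0.927), a histidase, and Slurp1 (0.921), a secreted protein of the outer epidermis.

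Slpi, the elastase inhibitor, was also high in outer keratinocytes, but in males its mean was highest in the class named Dynap+ basal. In that class the 4 upper suprabasal markers summed to 117% of their level over all cells, against 39.2% in male basal cells. Krt10 was at 27.4% against 9.95%, and the layer of the Dynap+ cells was not tested. Male Dynap+ basal cells had 492 CPM ± 86.4 (SD, n = 6), upper suprabasal cells 401 CPM ± 34.4 and terminally differentiated cells 302 CPM ± 74.2, and each of these steps was found in 5 of 6 mice. The male basal class had 50.1 CPM, suprabasal cells 98.4 CPM and Krt79 cells 96.8 CPM, the last being 76.7 CPM with the highest doublet scores removed. Female Wfdc21+ cells had 192 CPM ± 77.0 (SD, n = 6), terminally differentiated cells 77.2 CPM, Krt79 cells 63.9 CPM and basal cells 7.72 CPM. In LC-like cells the level was 8.13 CPM in males and 4.40 CPM in females, which is 4.92% and 17.1% of the level over all cells, and in females that is above the 1.13% to 1.90% of the keratins. It rested on few transcripts, since 0.461% ± 0.716 (SD, n = 6) of female LC-like cells held a Slpi UMI at 2000 UMIs per cell, against 19.9% ± 3.85 of Wfdc21+ cells. Among the genes most like Slpi were Lgalsl (r = 0.880) and Casz1 (0.818).

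Lcn2 was low, and among keratinocyte classes it was highest in Krt79 cells, with 22.1 CPM ± 6.47 in males and 12.1 CPM ± 3.72 in females (SD, n = 6). Over all cells it had 2.38 CPM ± 0.690 in females. Male suprabasal and volar cells had 5.51 to 14.9 CPM and 6.81 to 14.5 CPM per mouse. The 240 male T cells had a higher mean that 1 HFD mouse made (171 CPM, from a class total of 17 UMIs, 16 of them in 1 cell, with 4 of the 6 mice at 0). No Lcn2 UMI was found in the 1812 female LC-like cells.

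S100a8 and S100a9 came from a small number of cells. In females S100a8 was found in 1025 of 64228 cells (1.60%), and 31 cells held most of its 25745 UMIs, while 22 cells did so for the 27062 UMIs of S100a9. In males 322 of 62147 cells (0.518%) held the 1843 S100a8 UMIs, and single cells could make the level of a class: 402 of the 436 S100a8 UMIs and 453 of the 458 S100a9 UMIs of the Dynap+ basal class lay in 1 cell. The pair was found in the same cells. Of the S100a9 UMIs, 79.8% in males and 98.3% in females were in cells with S100a8. Levels over all cells were 2.47 CPM ± 2.07 for S100a8 and 2.77 CPM ± 2.51 for S100a9 in males, and 32.7 CPM ± 16.7 and 34.6 CPM ± 19.98 in females (SD, n = 6). Krt79 cells had 22.3 CPM of S100a8 in males and 68.1 CPM ± 25.3 in females. With the highest doublet scores removed, the female level was 36.2 CPM. In LC-like cells 2 male and 4 female S100a8 UMIs and 0 male and 9 female S100a9 UMIs were counted in all. S100a9 was the gene most like S100a8 across classes (r = 0.882), followed by Krt77 at 0.574.

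Neutrophils are the best known source of calprotectin, and most of these cells held none of their markers. Over all cells Retnlg was at 0 UMIs in both sexes and Ly6g at 1 UMI in males and 0 in females, Camp at 11 and 136, Ngp at 0 and 119 and Cxcr2 at 1102 and 1207. Of 8 neutrophil markers, 2 were high enough to be tested over all cells in males and 4 in females. Their summed level was 14.5 to 20.2 CPM in male RD and 15.2 to 15.4 CPM in male HFD mice, and 44.9 to 77.0 CPM in female RD and 47.7 to 71.5 CPM in female HFD mice, most of it from Il1r2, a decoy receptor of IL-1 (13.0 to 18.9 CPM in males, 42.8 to 74.8 CPM in females). The list's sum was highest in LC-like cells, at 804 to 990 CPM in males and 2288 to 2683 CPM in females, where S100a8 and S100a9 were at or near 0. Cells with at least 20 UMIs of S100a8 and S100a9 together numbered 22 in males and 255 in females, with 73.2% and 94.0% of the UMIs of the pair. Of these, 19 and 211 had no UMI of any neutrophil marker, 0 and 1 had 2 or more markers, and 22 and 252 had at least 10 keratin UMIs. Their median depth was 19000 and 15424 UMIs. Keratin UMIs were also found in LC-like cells (Krt10 at 437 CPM in males and 219 CPM in females). The part of free RNA in the keratin count was not tested. The 22 and 255 cells were spread over the classes, with at most 56 of the 255 in 1 class (volar). Of them, 7 and 77 (31.8% and 30.2%) were among the cells with the highest doublet scores, which were 10.1% of all male and 9.52% of all female cells. Their leading genes, described and not tested since the cells were chosen by S100a8 and S100a9, were the keratin Krt6b and the small proline-rich genes Sprr2e, Sprr2i and Sprr2a3, all known from stressed or wounded epidermis. A part of the cells held each: Krt6b 50% of the male and 21.2% of the female cells, Sprr2e 22.7% and 13.3%. Sprr2i was in 31.8% and 11.8%, and Sprr2a3 in 13.6% and 38.0%. Lcn2 was another, at 158 CPM against 1.93 CPM in other female cells and at 388 CPM against 9.97 CPM in males, and 62.7% of the female and 22.7% of the male cells held it. The cytokine Il19 and the chitinase-like Chil1 led in females, and the late envelope genes Lce3a and Lce3b in males. Each of the 12 mice had such cells.

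Saa1 in males was highest in suprabasal cells. These had 28.0 CPM ± 10.4 (SD, n = 6), upper suprabasal cells 17.9 CPM ± 5.94 and Krt79 cells 11.98 CPM, in this order in 6 of 6 mice, and suprabasal cells held 41.0% of the 10627 male UMIs. In females Saa1 had 195 UMIs in all, of which 83 were in terminally differentiated and 76 in Wfdc21+ cells. Saa2, a near-identical copy 8809 bases away, had 1235 UMIs in males and 4 in females. How reads that fit both genes were counted was not tested, and the Saa1 values are uncertain to an unknown extent. Saa3 had 697 UMIs in males, 40.9% of them in suprabasal cells, and 125 in females.

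**Figure D2:**
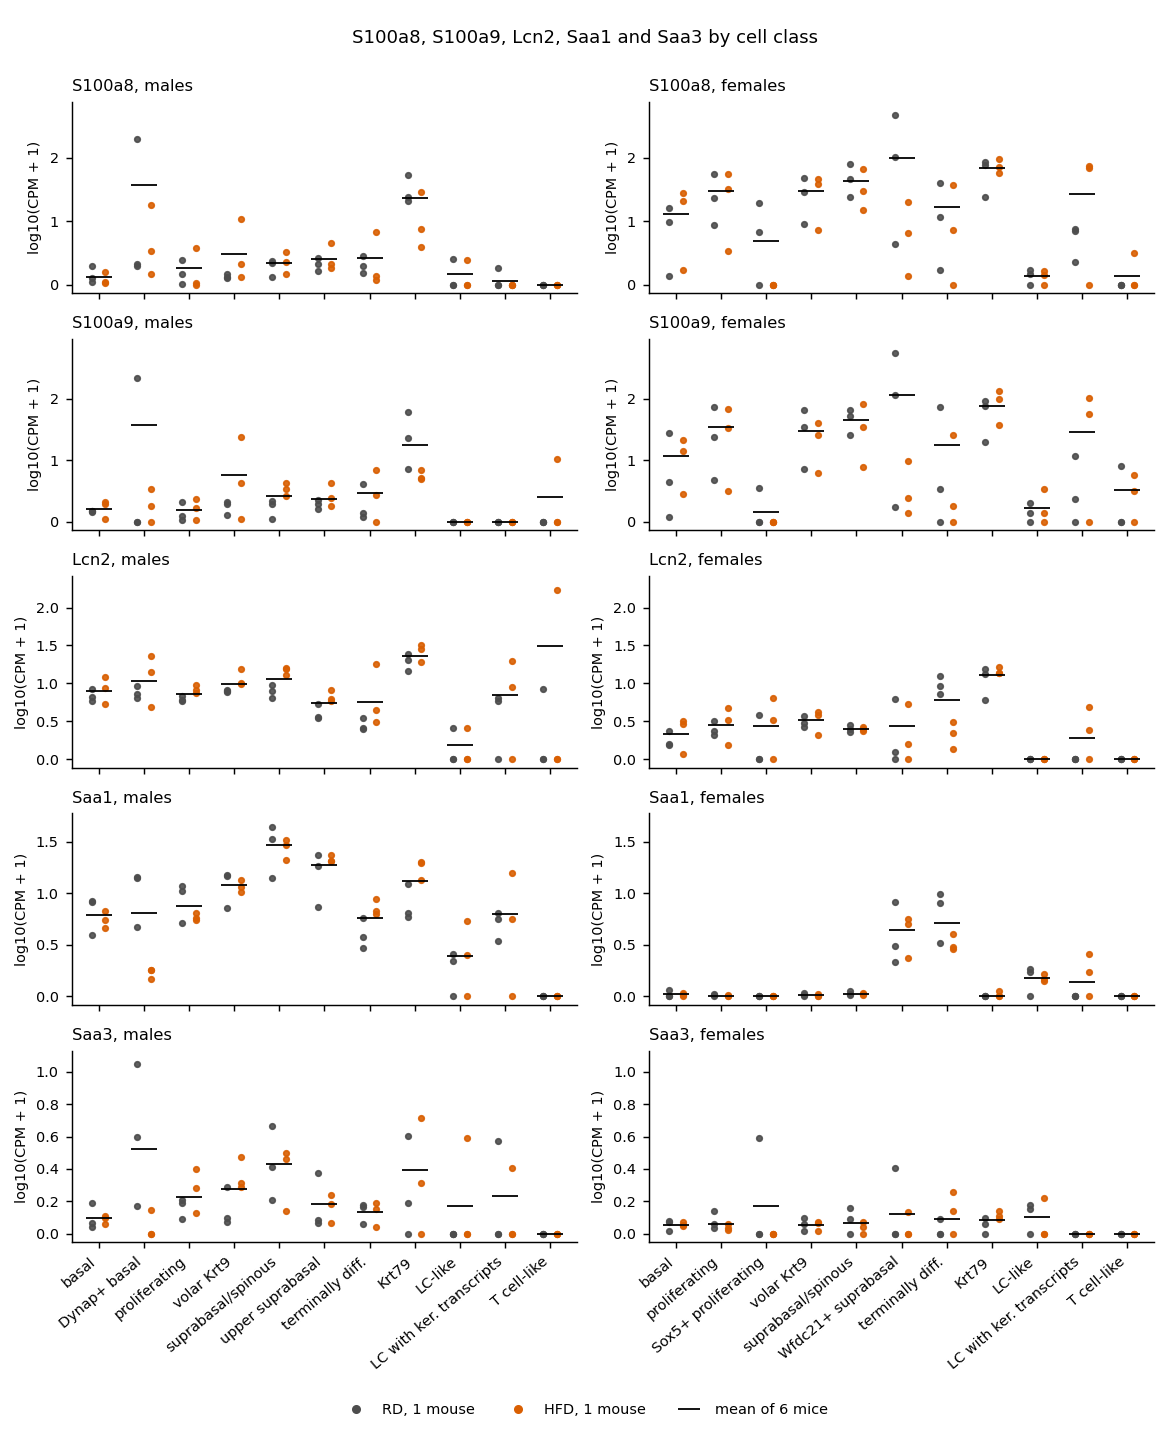
Levels of S100a8, S100a9, Lcn2, Saa1 and Saa3 in each cell class, as log10 of CPM + 1, with 6 male mice and 6 female mice per class (grey RD, orange HFD) and a bar at the mean of the 6. S100a8 and S100a9 spread widely between mice of one group, Lcn2 is highest in Krt79 cells among keratinocyte classes, and Saa1 is highest in male suprabasal cells at 28.0 CPM.

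HFD was then compared with RD within each sex with edgeR's quasi-likelihood test on UMI sums per class and mouse, with Benjamini-Hochberg adjustment over all genes of the class. In males 68 pairs of member and class were abundant enough to be tested. HFD was higher in 50 and lower in 18, the median log2 fold change was 0.42, and 0 pairs passed an adjusted p of 0.05, where 0.00786% of all gene-by-class pairs passed (8 of 101800). The lowest adjusted p was 0.0705 (Saa1 in terminally differentiated cells, where 2745 of all 9714 genes were at an unadjusted p under 0.05). At an unadjusted p under 0.05 there were 22 pairs, 19 of them higher with HFD, where 4.41% of all pairs were higher at this threshold. DESeq2 on the same sums called 4, beside 0.766% of all pairs in either direction. Over all cells 0 of the 9 members passed edgeR's test in males, beside 0% of 15406 genes. DESeq2 called 1, Lcn2, and the share of all genes that it called over all cells was not counted. In females 56 pairs were tested. HFD was lower in 40, the median log2 fold change was -0.29, and 4 pairs passed, all of Wfdc17 and all lower, beside 0.562% of all pairs that passed with HFD lower. Over all cells Wfdc17 passed in females, beside 1.2% of all genes with HFD lower. At an unadjusted p under 0.05 there were 22 pairs, 21 of them lower with HFD, where 7.39% of all pairs were lower at this threshold. DESeq2 called 9 pairs, beside 2.58% of all pairs in either direction.

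Tested pairs by gene were, in males, 5 for S100a8, 7 for S100a9, 9 each for Defb1, Defb6 and Slpi, 7 for Saa1, 4 for Saa3, 8 for Lcn2 and 10 for Wfdc17. In females 7 pairs were tested for S100a8, 6 each for S100a9 and Lcn2, 8 each for Defb1 and Defb6, 10 each for Slpi and Wfdc17, 1 for Saa1 and 0 for Saa3. The 3 HFD values lay above the 3 RD values in 10 of the 68 male pairs, where 4.35% of all gene-by-class pairs did so, and below them in 1, where 9.87% did. In females they lay above in 0 of 56, where 11.6% of all pairs did, and below in 13, where 8.16% did. Lcn2 gave 4 of the male pairs and Wfdc17 gave 8 of the female pairs.

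**Figure D3:**
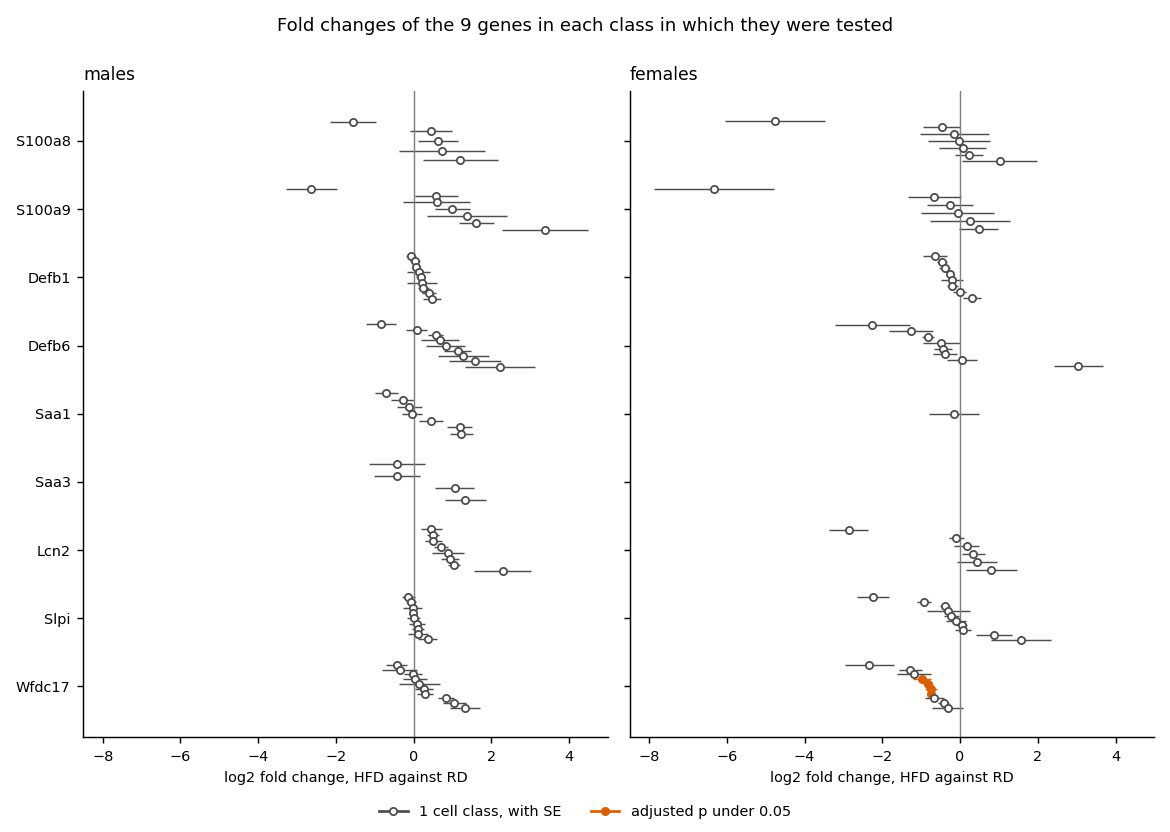
Log2 fold change of HFD against RD (horizontal axis, error bars are the standard error of edgeR's fit) for each tested member and class, males on the left and females on the right, with 3 mice per group. Orange filled points have an adjusted p under 0.05, of which there are 4 in females, all Wfdc17, and 0 in males.

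Wfdc17 was lower with HFD in females. Over all cells it was at 1141, 1077 and 1239 CPM in the 3 RD mice and at 553, 618 and 696 CPM in the 3 HFD mice. The groups did not overlap, and the log2 fold change was -0.94 (SE 0.0985, adjusted p = 0.018, edgeR's quasi-likelihood test). In a sum over all cells, fewer cells of a type and less RNA per cell cannot be told apart. In the suprabasal class, which gave the most UMIs, the RD mice had 2588, 2506 and 2579 CPM and the HFD mice 1118, 1772 and 1591 CPM. All 3 RD values were above all HFD values, with a log2 fold change of -0.82 (SE 0.123, adjusted p = 0.0143). Both calls were lost when any 1 of the RD mice was left out, with adjusted p of 0.106, 0.063 and 0.0599 over all cells and 0.0553, 0.0569 and 0.0691 in suprabasal cells without RD mouse 1, 2 and 3 (edgeR).

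Both the share of suprabasal cells with the transcript and the amount in those cells were lower. Thinned to 2000 UMIs, 52.8%, 55.5% and 54.6% of suprabasal cells of RD females had a Wfdc17 UMI, against 39.4%, 46.8% and 43.7% with HFD. In the cells with a UMI the level was 3155, 3030 and 3091 CPM with RD and 1549, 2313 and 2169 CPM with HFD, again without overlap. Suprabasal cells themselves were 18.5% ± 0.295 of RD and 15.5% ± 2.03 of HFD cells (SD, n = 3, two-sided exact permutation p = 0.1, the smallest that 3 against 3 mice can give).

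In the 2 other outer classes of females the difference did not pass. Wfdc21+ cells had 11660, 10821 and 10826 CPM with RD and 6784, 10354 and 8506 CPM with HFD, which did not overlap (log2 fold change -0.42, SE 0.133, adjusted p = 0.252, edgeR). Terminally differentiated cells had 1778, 1888 and 2249 CPM with RD and 1360, 1284 and 1696 CPM with HFD, also without overlap (log2 fold change -0.66, SE 0.239, adjusted p = 0.563, edgeR).

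The other 3 pairs that passed were at far lower levels. Volar cells had 78.7, 81.4 and 115 CPM with RD and 47.2, 69.3 and 49.2 CPM with HFD (log2 fold change -0.76, SE 0.154, adjusted p = 0.0402, edgeR). Basal cells had 24.3, 25.2 and 26.8 CPM with RD and 13.1, 15.5 and 17.0 CPM with HFD (log2 fold change -0.75, SE 0.0968, adjusted p = 0.0246, edgeR). LC-like cells had 40.7, 42.2 and 49.6 CPM with RD and 18.8, 32.8 and 15.7 CPM with HFD (log2 fold change -0.98, SE 0.22, adjusted p = 0.0432, edgeR). None of the 3 classes had overlapping groups. Without RD mouse 1, 2 or 3 none of the 3 passed, and without HFD mouse 1 none did either. Without HFD mouse 3 basal cells passed and volar and LC-like cells did not. LC-like cells did not pass with the highest doublet scores removed or with at least 1000 genes per cell. Volar cells did not pass with library sizes alone, and neither volar nor basal cells did with the replicate number as a block. The levels in volar, basal and LC-like cells were 8.42%, 2.33% and 3.74% of the level over all cells. Lor, the envelope protein loricrin of terminally differentiated cells, was at 2.07%, 1.86% and 2.58% in the same classes, and Wfdc21 at 2.31%, 2.16% and 3.99%. The Wfdc17 share of basal cells was near those of these genes of the outer stages, and that of volar cells was above them. In LC-like cells Wfdc17 lay between Lor and Wfdc21 but above the keratins (1.13% to 1.90%). The part of free RNA in the basal and LC-like levels was not tested.

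In males Wfdc17 pointed up with HFD in the outer classes without passing edgeR's test. Of 10 classes tested 7 were higher and 3 lower, the last including Krt79 cells (log2 fold change -0.43) and Dynap+ basal cells (-0.36). Over all cells the RD mice had 473, 231 and 278 CPM and the HFD mice 610, 786 and 443 CPM, and the lowest HFD value lay under the highest RD value (log2 fold change 0.96, SE 0.297, adjusted p = 0.39, edgeR). Terminally differentiated cells had 1731, 875 and 977 CPM with RD and 1941, 2621 and 1694 CPM with HFD, again with 1 RD mouse inside the HFD range (log2 fold change 1.05, SE 0.29, adjusted p = 0.0715, edgeR), and this change passed with DESeq2 (adjusted p = 0.0122). Upper suprabasal cells had 1359, 888 and 862 CPM with RD and 1758, 2249 and 1368 CPM with HFD, without overlap (log2 fold change 0.84, SE 0.208, adjusted p = 0.248, edgeR). LC-like cells had 10.9, 13.5 and 14.4 CPM with RD and 16.7, 55.0 and 27.3 CPM with HFD (log2 fold change 1.33, SE 0.395, adjusted p = 0.341, edgeR), at 4.87% of the all-cell level, below the 8.40% of Lor and above the 2.17% to 2.55% of the keratins in the same class.

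The effect of HFD on Wfdc17 differed between the sexes over all cells. The male log2 fold change was above the female one by 1.89 (SE 0.354, adjusted p = 0.0277, interaction term of edgeR's quasi-likelihood fit over 12 mice), beside 1.1% of all genes that passed this test. Of 58 member-by-class pairs 0 passed the interaction, beside 0.0397% of all pairs. Each sex was clustered on its own, so classes of the same name need not hold the same stages in both sexes. Summed markers of terminally differentiated cells were at 1205% of their all-cell level in the male class of that name and at 3651% in the female class. Wfdc17 in the suprabasal class was at 29.8% of its all-cell level in males and 231% in females. At an unadjusted p under 0.05 there were 21 pairs, 18 of them with the male change above the female one, where 4.96% of all pairs were so. The lowest adjusted p was 0.0569 (Wfdc17, Slpi and Lcn2 in terminally differentiated cells), and 1 cell held 160 of the 284 male Lcn2 UMIs of that class. In that class 2502 of all 9915 genes tested were at an unadjusted p under 0.05 in the interaction. DESeq2 called 7 member-by-class pairs, beside 1.45% of all pairs. The call over all cells was lost without female RD mouse 1 or 3, female HFD mouse 2 or 3, male RD mouse 3 or male HFD mouse 1 or 2 (adjusted p of 0.0559 to 0.0881). All males carried 1 version of the counting software and all females the other, so sex and software cannot be told apart here either.

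**Figure D4:**
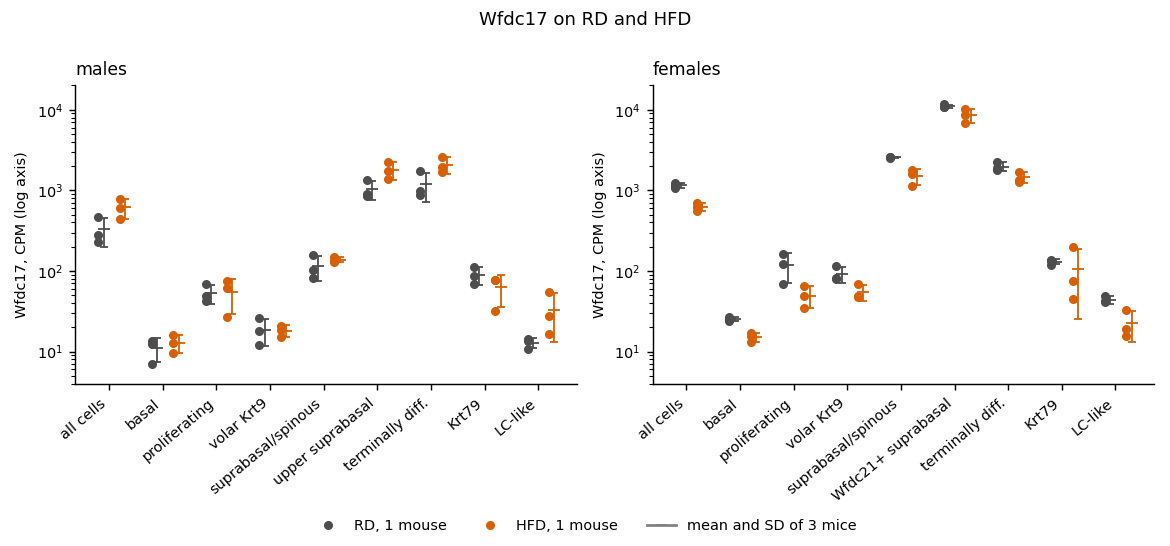
Wfdc17 in CPM on a log axis over all cells and in the classes of males and females, with a point per mouse (grey RD, orange HFD) and the mean and SD of 3 mice. In females the HFD mice lie below the RD mice over all cells (553 to 696 against 1077 to 1239 CPM), while in males they lie higher on average and the groups overlap.

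Markers of terminally differentiated cells moved with Wfdc17 in direction, and their part in the result was not tested. Their summed level (10 of 10 markers found) was 9007 to 10518 CPM in male RD and 13010 to 16076 CPM in male HFD mice, without overlap, and 4443 to 7141 CPM in female RD and 4076 to 5584 CPM in female HFD mice. Over all cells the median log2 fold change of the 10 was 0.56 in males and -0.39 in females, 0 of 10 passed in either sex, and 3 of 10 passed the interaction, Ivl, Lce1c and Lce1m. Within classes Krt80 passed in female LC-like cells (log2 fold change -0.97, adjusted p = 0.0287, edgeR), 1 of the classes in which Wfdc17 passed. Medians over all tested genes were -0.01 and 0.01. Wfdc21, the neighbour of Wfdc17, was at 229, 130 and 304 CPM in RD and 202, 131 and 188 CPM in HFD females over all cells. The summed level of 4 upper suprabasal markers overlapped in females, with 446 to 536 CPM in RD and 334 to 547 CPM in HFD mice. Of the 4, 1 passed in females, the serpin Serpinb3a, which fell by 0.96 on the log2 scale over all cells and by 0.85 within the suprabasal class (adjusted p = 0.0295 and 0.0267, edgeR), and its part in the Wfdc17 result was not tested. In the interaction Serpinb3a (1.80, adjusted p = 0.0259) and Tmem266 (-0.63, adjusted p = 0.0404) passed in opposite directions.

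Of 10 other proteins of the family and further proteinase inhibitors, 9 were tested over all cells in females, and 2 passed, Wfdc12 (log2 fold change -0.78, adjusted p = 0.0254) and Wfdc18 (-0.79, adjusted p = 0.0263, edgeR), both lower with HFD. Wfdc12 was at 113, 105 and 122 CPM with RD and 64.0, 61.4 and 79.6 CPM with HFD. The other 7 tested did not pass, among them Wfdc2, with 3.70, 5.04 and 4.68 CPM in RD and 3.93, 4.23 and 5.06 CPM in HFD females. Wfdc18 was also lower within the suprabasal class (-0.51, adjusted p = 0.0177) and passed the interaction over all cells (1.82, adjusted p = 0.0155). In males 0 of 9 passed. The list's median was -0.25 in females and 0.34 in males.

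Defb6 in Krt79 cells pointed down with HFD in females and up in males. Female RD mice had 2217, 1302 and 2058 CPM and HFD mice 980, 1030 and 1192 CPM. The groups did not overlap, but the change did not pass over all genes of the class (log2 fold change -0.82, SE 0.157, unadjusted p = 0.000348, adjusted p = 0.0686, edgeR). It passed with DESeq2 (adjusted p = 0.0207) and without RD mouse 2, the lowest of the RD mice (0.0103, edgeR). Male RD mice had 1378, 1030 and 765 CPM and HFD mice 1534, 1665 and 1424 CPM, also without overlap (log2 fold change 0.57, SE 0.191, adjusted p = 0.801, edgeR). The difference between the sexes was 1.37 (SE 0.282, adjusted p = 0.0998, interaction term of edgeR's fit).

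The share of Krt79 cells with a Defb6 UMI, thinned to 2000 UMIs, was 19.2%, 19.9% and 18.2% in RD and 14.4%, 14.8% and 15.1% in HFD females, without overlap. In males it was 17.2%, 20.1% and 13.1% with RD and 22.0%, 22.3% and 16.7% with HFD, with overlap. In female cells with a Defb6 UMI the level was 8217, 4761 and 7631 CPM with RD and 4165, 4143 and 5081 CPM with HFD, where 1 RD mouse lay inside the HFD range. In terminally differentiated cells of females Defb6 pointed the other way, at 4.61, 10.3 and 1.38 CPM with RD and 81.2, 7.60 and 55.9 CPM with HFD (log2 fold change 3.04, adjusted p = 0.252, edgeR), with overlap and with 186 of the 565 UMIs in 1 cell, and passed without HFD mouse 2 (0.0147).

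Defb1 was within narrower limits. Over all cells male RD mice had 49.8, 43.8 and 46.3 CPM and HFD mice 52.7, 53.3 and 57.3 CPM, without overlap and without passing the test (log2 fold change 0.28, SE 0.0815, adjusted p = 0.362, edgeR). Female Wfdc21+ cells had 284, 273 and 336 CPM with RD and 265, 258 and 179 CPM with HFD (log2 fold change -0.39, SE 0.142, adjusted p = 0.284, edgeR). In female suprabasal cells the change was -0.47 with an adjusted p of 0.0845 (edgeR), which became 0.0314 without HFD mouse 1, 0.0218 with the replicate block and 0.0161 with DESeq2.

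Slpi in males was at similar levels in both diets, with a log2 fold change of 0.12 over all cells (adjusted p = 0.823, edgeR). In females it was lower with HFD in Wfdc21+ and terminally differentiated cells without passing edgeR's test, and its log2 fold change in the larger suprabasal class was 0.04. Wfdc21+ cells had 305, 271 and 170 CPM with RD and 125, 146 and 131 CPM with HFD, without overlap (log2 fold change -0.93, SE 0.172, adjusted p = 0.0975, edgeR), and passed with DESeq2 (adjusted p = 4.96e-05) and without RD mouse 3 (0.00234, edgeR). Terminally differentiated cells had 81.1, 232 and 63.7 CPM with RD and 34.6, 11.6 and 40.4 CPM with HFD, without overlap (log2 fold change -2.25, SE 0.405, adjusted p = 0.168, edgeR), and passed with DESeq2 (adjusted p = 1.83e-05). In this class 1 cell held 437 of the 1542 Slpi UMIs. Over all cells RD mice had 37.0, 32.8 and 27.4 CPM and HFD mice 22.3, 21.4 and 28.3 CPM, with 1 HFD mouse inside the RD range (log2 fold change -0.48, adjusted p = 0.0989, edgeR, and 0.011 with DESeq2).

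Lcn2 was higher with HFD in each of the 8 male classes tested, 7 of them at an unadjusted p under 0.05, and passed in none. Over all cells RD mice had 5.12, 5.28 and 6.79 CPM and HFD mice 9.004, 8.89 and 10.9 CPM, without overlap (log2 fold change 0.81, SE 0.118, unadjusted p = 7.33e-05, adjusted p = 0.13, edgeR). Suprabasal cells had 5.51, 6.85 and 8.55 CPM with RD and 11.7, 14.9 and 14.6 CPM with HFD, without overlap (log2 fold change 1.03, SE 0.152, unadjusted p = 3.7e-05, adjusted p = 0.211, edgeR), and passed with DESeq2 (adjusted p = 1.26e-05) and without RD mouse 2 (0.0421, edgeR). Volar cells had 6.82, 7.15 and 6.81 CPM with RD and 8.91, 9.11 and 14.5 CPM with HFD, and upper suprabasal cells 2.47, 2.57 and 4.40 against 4.92, 7.09 and 5.21 CPM. Neither overlapped (log2 fold changes 0.70 and 0.93, adjusted p = 0.693 and 0.248, edgeR), and upper suprabasal cells passed with DESeq2 (adjusted p = 0.0244). In females Lcn2 over all cells changed by 0.16 (adjusted p = 0.778), and terminally differentiated cells, with 106 UMIs in all, had 11.7, 6.15 and 8.25 CPM with RD and 2.12, 1.199 and 0.377 CPM with HFD (log2 fold change -2.87, SE 0.504, adjusted p = 0.168, edgeR), without overlap, and passed with DESeq2 (adjusted p = 0.00184) and without RD mouse 2 (0.0122, edgeR).

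**Figure D5:**
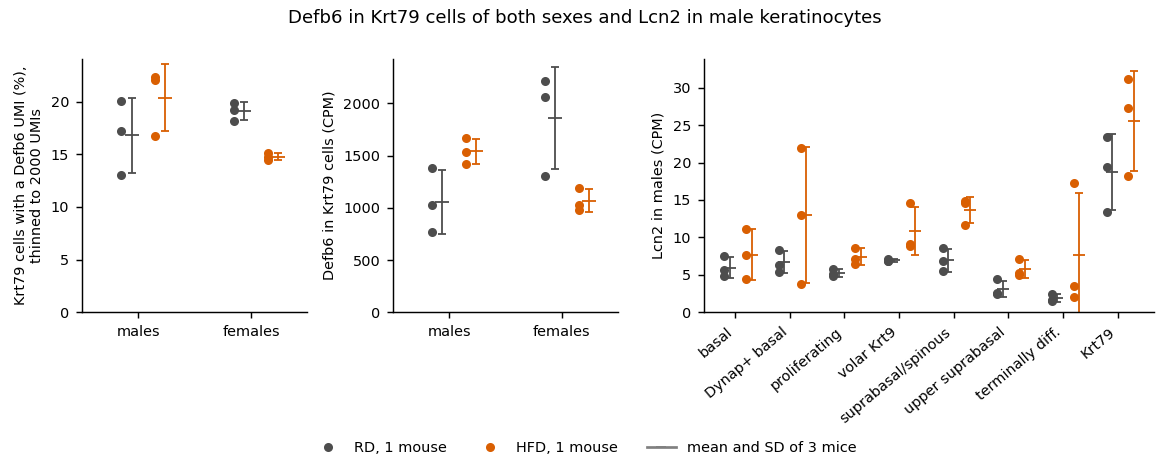
Left, percent of Krt79 cells with a Defb6 UMI at 2000 UMIs per cell; middle, Defb6 in CPM in Krt79 cells; right, Lcn2 in CPM in 8 male keratinocyte classes; points are mice (grey RD, orange HFD) with the mean and SD of 3, the lower bar of terminally differentiated HFD cells being cut at 0. For Defb6 in CPM the HFD mice lie below the RD mice in females (980 to 1192 against 1302 to 2217 CPM) and above them in males, while the male shares of cells overlap.

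S100a8 and S100a9 varied between mice of one diet as much as between diets. Over all cells S100a8 was at 49.97, 45.3 and 13.2 CPM in RD and 31.9, 43.8 and 12.1 CPM in HFD females (log2 fold change -0.37, adjusted p = 0.732, edgeR), and at 1.65, 1.02 and 6.51 CPM in RD and 2.58, 1.01 and 2.03 CPM in HFD males (-0.63, adjusted p = 0.804). The groups overlapped in both sexes. S100a9 in females was at 48.4, 58.5 and 13.0 CPM with RD and 26.1, 49.2 and 12.6 CPM with HFD, likewise overlapping (-0.52, adjusted p = 0.641). In female Wfdc21+ cells S100a8 was at 468, 104 and 3.43 CPM with RD and 0.387, 19.6 and 5.53 CPM with HFD (-4.77, adjusted p = 0.213), and the 3 RD mice were far apart from each other. In this class 1 cell held 1753 of the 2286 S100a8 UMIs, and 1 cell held 2149 of the 2638 S100a9 UMIs. Without RD mouse 3 this change passed (adjusted p = 0.028), and that of S100a9 in the same cells did too (0.00401), values that rest on such single cells. In male Krt79 cells S100a9 was at 6.27, 22.1 and 60.2 CPM with RD and 3.93, 5.93 and 4.17 CPM with HFD, without overlap (-2.63, adjusted p = 0.45, edgeR), with 271 of the 454 UMIs in 1 cell, and in male suprabasal cells at 1.23, 0.130 and 0.979 CPM with RD and 2.48, 1.63 and 3.31 CPM with HFD, also without overlap and in the opposite direction (1.61, adjusted p = 0.579, edgeR).

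Saa1 over all male cells was at 15.9, 5.96 and 18.4 CPM with RD and 12.5, 14.4 and 13.9 CPM with HFD, with overlap (log2 fold change 0.07). Krt79 cells had 11.3, 4.92 and 5.38 CPM with RD and 19.1, 12.6 and 18.7 CPM with HFD, without overlap (log2 fold change 1.23, SE 0.299, adjusted p = 0.393, edgeR). Terminally differentiated cells had 4.80, 2.73 and 1.95 CPM with RD and 7.78, 5.25 and 5.65 CPM with HFD, also without overlap (log2 fold change 1.19, SE 0.324, adjusted p = 0.0705, edgeR), and passed with DESeq2 (adjusted p = 0.0259). Proliferating cells pointed down, with 10.8, 4.11 and 9.40 CPM in RD and 4.56, 5.42 and 4.80 CPM in HFD mice, with overlap (log2 fold change -0.70, adjusted p = 0.497), and passed without RD mouse 2 (0.0148, edgeR). Dynap+ basal cells, with 83 UMIs and under the filter on low counts, had 13.3, 3.73 and 13.1 CPM with RD and 0.814, 0.478 and 0.815 CPM with HFD, without overlap. This pair had no test in the main fit and was tested only under alternatives. Saa3, with 0.845 CPM over all male cells, was tested in 4 male classes and passed in none.

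Of 22 further antimicrobial effectors 14 were tested over all cells in males, where 0 passed, and 17 in females, where Rnase4, an angiogenin-family ribonuclease, fell by 0.31 on the log2 scale (adjusted p = 0.0498, edgeR). Rnase4 also fell in female suprabasal cells (by 0.37, adjusted p = 0.0233) and volar cells (by 0.38, adjusted p = 0.0476, edgeR). Bpifc, of the bactericidal/permeability-increasing family, fell by 0.26 in female suprabasal cells (adjusted p = 0.0499). Rnase4 over all cells was at 92.4, 85.2 and 81.5 CPM with RD and 70.4, 79.1 and 66.7 CPM with HFD. Of 11 further acute-phase genes 4 were tested in each sex and 0 passed, and the acid glycoprotein Orm1 passed the interaction (0.93, adjusted p = 0.0226). Of 9 receptors of the members, 5 were tested in males and 7 in females, and 0 passed. All 20 genes upstream, the IL-17, IL-1, IL-6 and TNF signals and the factors that carry them, were tested over all cells and 0 passed in either sex. The IL-17 receptor chain Il17rc rose with HFD in female basal cells (0.44, adjusted p = 0.0414), from 15.5, 14.9 and 16.3 CPM to 20.2, 22.4 and 20.8 CPM.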

How the data were processed

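Single-cell RNA-seq counts of 12 libraries, 1 per mouse, were analysed, and groups came from the labels. The authors deposited whole UMI counts per gene and barcode, made with Cell Ranger and without normalization; per the file headers this was version 6.1.0 for males and 7.2.0 for females, while the submitters' processing notes name Cell Ranger 7.2.0, Seurat 5.0.0 and mm10 (GRCm38). Whether intronic reads were counted is not given in the sources used here.

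Barcodes with fewer than 200 (males) or 500 (females) genes, with over 6000 genes or with over 5% of UMIs from mitochondria were left out, following the study's methods, and doublets were kept. Each sex was clustered with leidenalg 0.10.2 under Python 3.11.15 (2000 variable genes, 10 principal components, 20 neighbours, resolution 0.3). The 9 members took no part in the clustering. A cluster took a class name when 3 or more of its markers were present in a share of at least 0.1 of the cells at a log2 fold of 0.5 or more. These classes are not those of the authors. LC-like cells were clustered again to separate those with keratinocyte transcripts.

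UMIs were summed per class and mouse and tested with edgeR 4.0.16 in R 4.3.3 (TMM, filterByExpr, quasi-likelihood test, Benjamini-Hochberg adjustment over all genes of a class), HFD against RD within a sex, and as an interaction with sex over 12 mice. The test was checked on simulated data. For shares of cells with a UMI, cells were thinned to 2000 UMIs. Likeness was Pearson's r of log2(CPM + 1) over class-by-mouse sums, averaged over both sexes, among genes of at least 10 CPM in a class. Alternatives were DESeq2 1.42.0, its size factors or none, no filter on low counts, the replicate number as a block, each mouse left out, cells with the highest doublet scores removed, at least 1000 genes per cell and finer clusters. The text names the 9 members and, of further lists of effectors, acute-phase genes, inhibitors, receptors and upstream signals, genes that passed. The members and lists were chosen with earlier results of these data known.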

Additional observations from a re-analysis of the deposited data

Results flagged for a closer look

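The difference between the sexes in the effect of HFD on Wfdc17 over all cells passed the test of the difference itself: the male log2 fold change exceeded the female one by 1.89 (SE 0.354, adjusted p = 0.0277, interaction term of edgeR's quasi-likelihood fit over 12 mice). The call was lost when any 1 of 7 of the 12 mice was left out (adjusted p of 0.0559 to 0.0881). Sex and counting software cannot be told apart.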

How the results depend on the processing

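The count of male pairs that passed (0) became 4 with DESeq2, 31 of 94 with no filter on low counts (where 1.36% of all pairs passed), 3 with the replicate block and 0 to 3 with each mouse left out (3 without RD mouse 2). Of all male pairs 0.0776% passed with the replicate block and 0.235% without RD mouse 2, beside 0.00786% in the main fit. The female count (4) became 9 with DESeq2, 2 with finer clusters, 24 of 93 with no filter on low counts (2.09% of all pairs) and 0 to 5 with each mouse left out, 0 without RD mouse 1 and 2 without RD mouse 2 or HFD mouse 1. Of all female pairs 1.16% passed in the main fit and 0.591% with finer clusters. The share was 0.0579%, 0.0641% and 0.149% without RD mouse 1, 2 and 3. It was 0.494% without HFD mouse 1 and 2.55% without HFD mouse 2. The interaction count (0) became 7 with DESeq2, 27 of 79 with no filter (1.24% of all pairs), 3 with the replicate block and 0 to 6 with each mouse left out (6 without female RD mouse 2). Of all pairs 0.0397% passed the interaction in the main fit, 0.0642% with the replicate block and 1.34% without female RD mouse 2. Over all cells the male count (0) became 1 with DESeq2 and 1 with no filter. The female count (1) became 2 with DESeq2, 0 with the replicate block and 0 without each RD mouse, so that leaving out mice gave 0 to 1. The interaction count (1) became 3 with DESeq2, 2 with no filter and 0 to 2 with each mouse left out. The cause of these differences was not tested, and the shares of all genes that passed over all cells under the alternatives were not counted.

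For Wfdc17 in females over all cells the adjusted p (edgeR's quasi-likelihood test) was 0.106, 0.063 and 0.0599 without RD mouse 1, 2 and 3 and 0.0597 with the replicate block, and in the suprabasal class 0.0553, 0.0569 and 0.0691 without these mice and 0.0704 with finer clusters; the direction held in each. With the replicate block, Wfdc17 in female basal and volar cells no longer passed. Defb1 in female suprabasal cells (adjusted p = 0.0218, edgeR) and S100a9 in female Wfdc21+ cells (0.037) did, and among male pairs Lcn2 in suprabasal cells passed (0.0339). Defb6 in Krt79 cells (0.0363), S100a9 in volar cells (0.0137) and Wfdc17 in suprabasal cells (0.0439) passed the interaction. Deviations of same-numbered RD and HFD mice had an r of 0.0165 to 0.139 in males and -0.113 to 0.0155 in females. Mice of different numbers had -0.129 to 0.0166 in males and -0.164 to 0.238 in females. With 3 same-numbered pairs per sex, these values cannot decide whether the numbers pair mice.

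For members and classes at an unadjusted p under 0.05, directions reversed for Saa1 in male proliferating cells with finer clusters (0.11), and, with the highest doublet scores removed, for the interaction of Defb6 in terminally differentiated cells (2.24) and of Wfdc17 in proliferating cells (-0.061). Of their other values, 1018 kept direction and side of the threshold, 107 newly passed and 34 no longer passed. For members and classes not under that p, 213 of 2001 values changed direction, and 89 of 133 pairs did so under at least 1 alternative, among them Slpi in male suprabasal cells and Defb6 in male terminally differentiated cells. Some class levels moved by more than the SD between mice with the highest doublet scores removed. Among them were S100a8 in female Krt79 cells (68.1 to 36.2 CPM) and Wfdc17 in female proliferating cells (83.8 to 25.8 CPM). Shares of cells with a UMI moved by more than the spread between mice in 73 of 198 cases at 5000 UMIs and in 41 of 198 without thinning. Depth limits Saa1 and Saa3 in females and Lcn2 in outer classes, where sums rest on few UMIs.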
